A study of Mus musculus with 14 samples.

Results

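The members are 8 genes of voltage-gated sodium channels: the pore-forming subunits Scn1a, Scn2a, Scn3a, Scn8a and Scn9a and the auxiliary beta subunits Scn2b, Scn3b and Scn4b. They were chosen by name, as the rows of the deposited counts that carry these symbols, and all 8 were found among 17927 genes. Total RNA of 7 WT and 7 Capn15 KO mouse brains, taken at postnatal day 2 (P2) and depleted of ribosomal RNA, was sequenced. The mice were untreated, and the labels give 1 batch for all. The study's methods put 4 samples on a sequencing lane, however, and lanes were not part of the model used here. Capn15, the gene knocked out, encodes a calpain, an intracellular cysteine protease. The study's methods name a lacZ-Neo and a floxed Capn15 line, both made with C57BL/6J mice, and the labels do not say which gave these brains. The brains came from 6 litters, called A to F here. Litter B gave 2 WT and 2 KO brains and each other litter gave 1 of each. Of the WT brains 2 were female and 5 male, and of the KO brains 4 were female and 3 male. The question for the members was which subunits carried the sodium channel mRNA of the P2 brain, and whether their levels and the ratios of earlier to later subunits differed between genotypes.

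A voltage-gated sodium channel is 1 large pore-forming protein that opens on depolarization and carries the rising phase of the action potential, together with small beta subunits that tune its gating, its surface level and its adhesion to other proteins. In the rodent brain Scn3a is the subunit of the embryo and declines after birth. Scn2a dominates young axons, while Scn1a, in inhibitory neurons above all, and Scn8a, at the mature initial segment and node of Ranvier, rise as circuits mature. Scn9a is known from peripheral sensory neurons. Scn3b is the early beta subunit, while Scn2b and Scn4b, which bind the pore through a disulfide bond, come later.

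The genes lie on 3 chromosomes of GRCm38. Scn3a (chr2:65457118-65567627, minus strand), Scn2a (chr2:65620771-65767447, plus strand), Scn1a (chr2:66270778-66440840, minus strand) and Scn9a (chr2:66480080-66634962, minus strand) are neighbours on chromosome 2. Scn8a stands apart (chr15:100869858-101045938, plus strand). Scn3b (chr9:40269217-40291618), Scn2b (chr9:45117782-45130070) and Scn4b (chr9:45138395-45154152), all on the plus strand, lie on chromosome 9, with Scn2b and Scn4b next to each other. The longest transcript of each pore-forming gene has 27 exons in GENCODE M21. Exons of an antisense gene, Gm13629, overlap exons of Scn9a, and the strand setting of the counting is not given in the sources used here, so that the value of Scn9a may hold reads of its antisense partner.

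RefSeq promoters on GRCm38.p6 were matched for 6 of the 8 genes (Scn1a, Scn2a, Scn8a, Scn9a, Scn2b and Scn4b). The windows printed here are the 250 bases before the annotated starts of Scn1a, Scn2a and Scn8a, the pore-forming genes against which Scn3a is set in the ratios. They are written in the direction of transcription, with CG dinucleotides in capitals.
Scn1a (chr2:66440838-66441087): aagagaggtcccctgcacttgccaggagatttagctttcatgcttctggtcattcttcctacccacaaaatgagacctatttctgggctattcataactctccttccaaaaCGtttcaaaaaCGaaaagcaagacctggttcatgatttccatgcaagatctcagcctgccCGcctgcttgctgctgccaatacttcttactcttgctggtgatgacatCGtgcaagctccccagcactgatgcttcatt
Scn2a, first start (chr2:65620519-65620768): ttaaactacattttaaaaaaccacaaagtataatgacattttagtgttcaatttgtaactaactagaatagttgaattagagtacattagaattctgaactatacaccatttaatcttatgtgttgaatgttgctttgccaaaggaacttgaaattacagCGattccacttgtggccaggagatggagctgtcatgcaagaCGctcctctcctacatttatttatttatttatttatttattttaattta
Scn2a, second start (chr2:65668436-65668685): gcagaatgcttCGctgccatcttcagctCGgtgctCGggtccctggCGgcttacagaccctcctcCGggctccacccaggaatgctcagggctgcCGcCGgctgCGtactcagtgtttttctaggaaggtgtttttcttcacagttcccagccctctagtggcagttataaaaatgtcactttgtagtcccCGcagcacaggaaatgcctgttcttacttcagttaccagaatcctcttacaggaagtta
Scn8a, first start (chr15:100870395-100870644): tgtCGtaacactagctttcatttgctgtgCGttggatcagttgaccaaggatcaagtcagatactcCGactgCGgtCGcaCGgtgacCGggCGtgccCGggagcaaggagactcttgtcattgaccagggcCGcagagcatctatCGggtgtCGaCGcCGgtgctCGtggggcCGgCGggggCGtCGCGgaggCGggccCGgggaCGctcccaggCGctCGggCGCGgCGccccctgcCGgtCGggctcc
The GC content was 46.8% for Scn1a, 29.6% for the first start of Scn2a, 53.2% for its second start and 68.0% for the first start of Scn8a, against a median of 52.4% over 32851 promoters of the table. The first Scn8a window held 30 CG dinucleotides, while the Scn1a window held 4, the Scn2a windows held 2 and 9, and the median over all promoters was 6. The windows not printed were the second start of Scn8a (53.2% GC, 9 CG), Scn9a (54.4%, 5 CG), Scn2b (38.4%, 1 CG) and Scn4b (66.0%, 23 CG). Of the 8 windows of the members, 1 held TATAAA on either strand (the second start of Scn2a), and 12.4% of all promoters did. None held GGGCGG, the core of the GC box, which 32.7% of all promoters held. None held CAGCACC, a part of the site of the repressor Rest, against 5.73% of all promoters. The other part of that site, GGACAG, was in none of the 8 windows and in 18.7% of all promoters. The motifs were read on both strands and are matches of letters, not sites.

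The libraries held between 37620954 and 70910163 counts, so that 3 counts stood for 0.0797 CPM (counts of a gene per 1000000 counts of the library) in the smallest. Members had at least 61 counts in every library. CPM values are TMM-scaled below. The targeted gene Capn15 was at 25.4 ± 3.07 CPM in WT (SD, n = 7) and at 14.5 ± 2.67 CPM in KO (SD, n = 7). It was lower in KO in 6 of 7 pairs of the same litter. In litter F, however, the library labelled WT had 18.7 CPM and the library labelled KO had 20.2 CPM, which goes against the labels, so that results were also computed without both libraries of litter F. Over all 14 libraries the log2 fold change of Capn15 was -0.81 (SE 0.118, FDR 0.0747, edgeR quasi-likelihood test adjusted for litter and sex), and without litter F it was -0.98 (FDR 1.58e-06). The study's own edgeR analysis, also with sex and litter, reported a larger decrease of Capn15, which it called, and more called genes than here. The cause of that difference was not tested. The labels give neurons as the cell type and brain as the tissue. Markers of neurons summed to between 3953 and 4428 CPM, but those of astrocytes and radial glia summed to between 1257 and 1780 CPM and those of the oligodendrocyte lineage to between 306 and 543 CPM, as in whole brain. In such bulk samples fewer cells of a type and less RNA per cell cannot be told apart.

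Per length of exon, Scn3b was the most abundant member in the P2 brain, followed by Scn2a and Scn3a. The level of Scn3b was 48.3 ± 1.56 CPM per kb of exon (SD, n = 14 brains of both genotypes), that of Scn2a was 33.0 ± 3.64 and that of Scn3a was 18.4 ± 0.940. Each of these exceeded the next member in all 14 libraries. Scn2b (5.75 ± 1.13 CPM per kb), Scn8a (5.19 ± 0.628) and Scn1a (5.07 ± 0.580) formed a middle group whose order was not firm, since Scn2b exceeded Scn8a in 10 of 14 libraries and Scn8a exceeded Scn1a in 9 of 14. Scn9a stood lower, at 2.07 ± 0.276 CPM per kb, and Scn4b was lowest among the members, at 0.459 ± 0.125 CPM per kb. Of other genes of the family, Nalcn, a sodium leak channel, was at 8.48 ± 0.473 CPM per kb, between Scn3a and Scn2b. Scn7a was at 0.251 ± 0.0397, Scn11a at 0.138 ± 0.0283 and Scn10a at 0.0524 ± 0.0174, all below Scn4b on the CPM per kb scale. Of 5 other family genes listed, 4 were found in the counts, and Scn4a has no value here. The order depends on the length used, for the beta subunits, whose transcripts are mostly outside the coding sequence, and also for Scn1a and Scn8a. Per kb of coding sequence Scn2b (41.5 ± 8.13) stood above Scn3a (39.3 ± 2.004) in 9 of 14 libraries, and Scn3b was at 409 ± 13.2. On that scale Scn8a (13.7 ± 1.66) stood above Scn1a (9.38 ± 1.07) in 14 of 14 libraries. Per kb of the longest transcript Scn1a stood above Scn2b in 14 of 14.

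**Figure D1:**
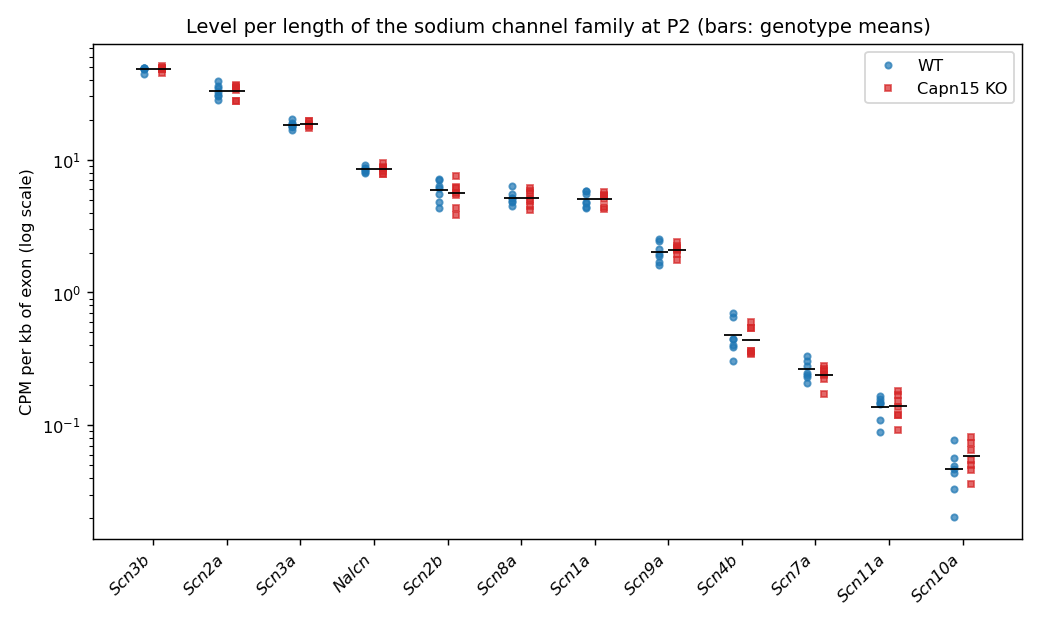
Level of the 8 members and 4 other genes of the family in CPM per kb of exon (log scale, vertical axis), with circles for the 7 WT and squares for the 7 Capn15 KO brains and a bar at each genotype mean. Scn3b, Scn2a and Scn3a head the order at means of 48.3, 33.0 and 18.4 CPM per kb, and the 2 genotypes overlap for every gene.

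The share of each pore-forming gene in the sum of the 5, per length of exon, describes the same levels within a brain. Scn2a made up 51.6% ± 2.55 (SD, n = 14), Scn3a 29.1% ± 2.79, Scn8a 8.12% ± 0.543, Scn1a 7.94% ± 0.490 and Scn9a 3.27% ± 0.583. Scn2a and Scn3a together thus held most of the pore-forming mRNA in every brain. The share of Scn2a ranged from 46.9% to 54.4% in WT and from 47.8% to 54.0% in KO. The share of Scn3a ranged from 26.0% to 33.9% in WT and from 25.9% to 33.9% in KO, so that the genotypes covered the same range.

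**Figure D2:**
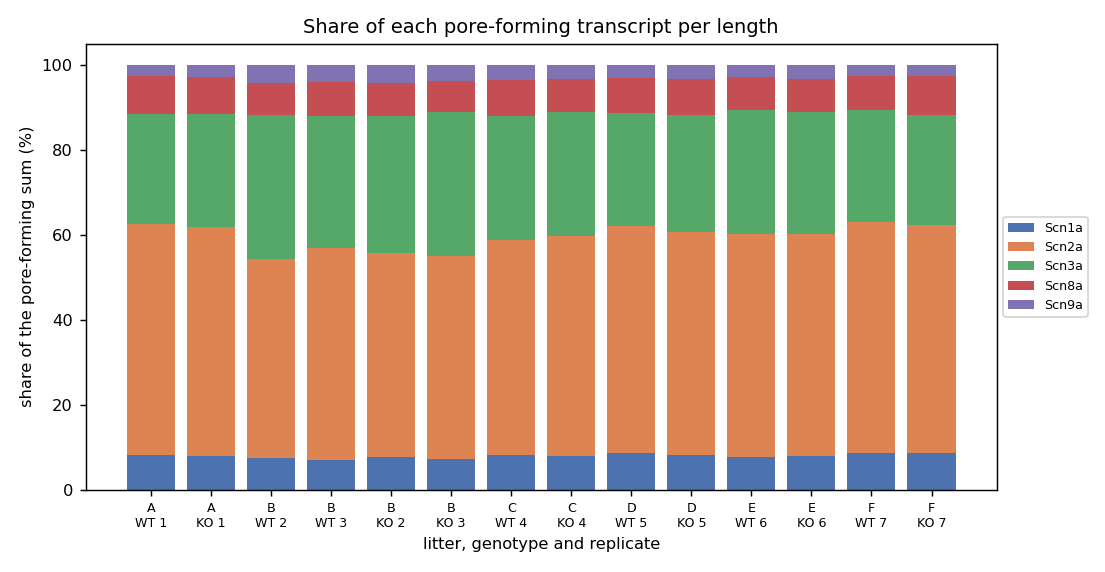
Share (%) of each pore-forming transcript in the sum of the 5 per kb of exon, 1 stacked bar for each brain, ordered by litter. Scn2a and Scn3a fill most of every bar, and the 4 bars of litter B show the largest Scn3a part, at 32.8% on average.

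None of the 8 genes passed the test between genotypes. No member had an FDR under 0.05 or an unadjusted p under 0.05, where 0.00558% of all 17927 genes were called at an FDR under 0.05 (1 gene, Ptgds, named after its value was seen) and 5.14% had an unadjusted p under 0.05. Of the members 6 had a higher and 2 a lower fitted level in KO, with a median log2 fold change of 0.01 against 0.00 over all genes. WT and KO libraries overlapped for 8 of 8 members, as they did for nearly every gene, since 0.00558% of all genes had libraries that did not overlap. The FDR was 1.0 for each member, with and without litter F.

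Scn2a, the main subunit of young axons, lay between 356 and 497 CPM in WT (median 411) and between 351 and 469 CPM in KO (median 441). The ranges nearly coincided. Its log2 fold change, KO against WT, was 0.02 (SE 0.0326, unadjusted p = 0.630, edgeR), with a 95% interval from 3.67% lower to 6.14% higher. Scn3a, the embryonic subunit, lay between 209.9 and 252 CPM in WT (median 224) and between 215 and 245 CPM in KO (median 229.7). The WT brains held both the lowest and the highest value. Its log2 fold change was 0.04 (SE 0.0284), higher in KO in 5 of 7 pairs, and the 95% interval ran from -0.02 to 0.10. Scn1a, prominent in inhibitory neurons, lay between 48.1 and 65.2 CPM in WT (median 54.0) and between 47.1 and 63.7 CPM in KO (median 59.1). Its log2 fold change was 0.00 (SE 0.0378, 95% interval -0.08 to 0.09), and it was higher in KO in 4 of 7 pairs. Scn8a, the subunit of mature initial segments and nodes, lay between 71.02 and 99.4 CPM in WT (median 80.7) and between 66.4 and 96.7 CPM in KO (median 80.6). The lowest value was a KO brain and the highest a WT brain. Its log2 fold change was 0.02 (SE 0.0430, 95% interval -0.08 to 0.11) and turned to -0.03 without litter F, whose KO brain was the higher of that pair. Scn9a, the subunit of sensory neurons, lay between 20.8 and 32.5 CPM in WT (median 25.03) and between 22.5 and 30.4 CPM in KO (median 27.3). The KO values lay within the WT range. Its log2 fold change was 0.07 (SE 0.0547), the largest of the pore-forming members, with a 95% interval from -0.05 to 0.19.

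The beta subunits gave the same picture. Scn3b, the early beta subunit, had the narrowest spread of all members relative to its level, between 244 and 267 CPM in WT (median 266) and between 247 and 276 CPM in KO (median 266). Its log2 fold change was 0.01 (SE 0.0221), and the 95% interval ran from 2.24% lower to 4.42% higher. Scn2b, a beta subunit that is linked to the pore by a disulfide bond, lay between 20.3 and 33.7 CPM in WT (median 28.4) and between 17.7 and 34.9 CPM in KO (median 26.1). It was lower in KO in 5 of 7 pairs, with a log2 fold change of -0.08 (SE 0.0458, unadjusted p = 0.107, edgeR) and a 95% interval from -0.18 to 0.02. Without litter F the value was -0.11. Scn4b, bound to the pore in the same way and linked to resurgent current in large neurons, lay between 1.52 and 3.48 CPM in WT (median 2.22) and between 1.71 and 2.98 CPM in KO (median 1.81). It was lower in KO in 5 of 7 pairs, with a log2 fold change of -0.09 (SE 0.101, 95% interval -0.31 to 0.13), which moved to -0.21 without WT replicate 5 or KO replicate 5 and to nearly 0 without WT or KO replicate 4. At 61 to 199 counts a library, Scn4b had the widest interval of the members, from 19.1% lower to 9.31% higher in KO, and a difference within it was not detectable at this depth and spread.

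**Figure D3:**
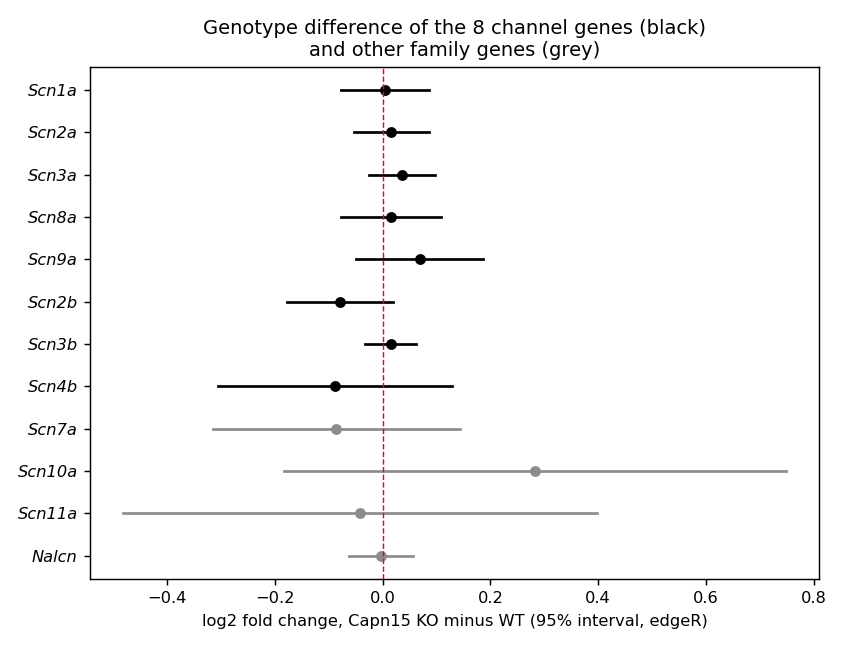
Log2 fold change of each gene, Capn15 KO minus WT (horizontal axis), from the fit with litter and sex, with bars for the 95% interval. The intervals of the 8 members in black all cross 0, and those of Scn3b (-0.03 to 0.06) and Scn2a (-0.05 to 0.09) are narrow, while the scarce Scn10a and Scn11a in grey have the widest.

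The ratios of earlier to later subunits were computed in each brain from the values per kb of exon and compared on the log2 scale. The ratio of Scn3a to Scn2a lay between 0.478 and 0.724 in WT, with a mean of 0.562 ± 0.0878 (SD, n = 7), and between 0.482 and 0.708 in KO, with a mean of 0.571 ± 0.0878 (SD, n = 7). The difference, KO minus WT, was 0.02 on the log2 scale, with an interval from -0.22 to 0.27 by inversion of the exact permutation test. That test regroups the brains without regard to litter. The intervals of the ratios thus also hold the spread between litters, which was 93.9% of the variation for this ratio. No interval within litters was computed. Scn3a to Scn1a was 3.67 ± 0.621 in WT and 3.71 ± 0.543 in KO, and Scn3a to Scn8a was 3.57 ± 0.504 in WT and 3.65 ± 0.642 in KO. Their log2 differences were 0.02 and 0.03. Over all brains the embryonic Scn3a was at between 2.82 and 4.64 times the level of Scn8a per kb of exon. It was at between 3.03 and 4.62 times that of Scn1a on the same scale. Scn2a to Scn8a was the steadiest ratio, at 6.36 ± 0.305 in WT and 6.37 ± 0.354 in KO, with a log2 difference of 0.00 and an interval from -0.08 to 0.09. Among the beta subunits Scn3b to Scn2b was 8.42 ± 1.76 in WT and 9.10 ± 2.29 in KO, and Scn3b to Scn4b was 108 ± 31.7 in WT and 115 ± 28.0 in KO. Their log2 differences were 0.10 (interval -0.28 to 0.48) and 0.11 (interval -0.38 to 0.59), and the ratio was higher in KO in 4 and in 5 of 7 pairs. None of the 6 ratios passed the two-sided exact permutation test between genotypes, which runs over all 3432 ways to place 7 of the 14 brains in a group and cannot go below p = 0.000583. The exact p lay between 0.575 and 0.937, and the adjusted p over the 6 ratios was 0.937 for each. Paired within litters, the exact sign-flip test gave p between 0.156 and 0.953.

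The members differed between litters. With genotype and sex accounted for, 6 of 8 members differed between litters at an FDR under 0.05 (edgeR), where 29.6% of all genes did. Abundant genes were called more often (34.0% of genes of at least 1 CPM and 42.1% of those of at least 50 CPM), and litters hold 2 or 4 brains each. A median of 89.4% of the variation of a member's log2 CPM within genotypes lay between litters, against 64.1% over all genes. The members that differed were Scn2b (FDR 7.37e-05), Scn2a (FDR 0.000435), Scn1a (FDR 0.00102), Scn8a (FDR 0.00282), Scn4b (FDR 0.00428) and Scn9a (FDR 0.00734). Scn3a (FDR 0.0540) and Scn3b (FDR 0.0918) missed the threshold. Without litter F the same 6 were called, and Scn3a (FDR 0.340) and Scn3b (FDR 0.936) were not.

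Scn1a, Scn2a, Scn8a, Scn2b and Scn4b were lowest in litter B and highest in litter A or F. Scn2a averaged 362 CPM in the 4 brains of litter B and 483 CPM in the 2 brains of litter A, with 415 to 449.7 CPM in the other litters. All 4 brains of litter B lay below every brain of the other litters for Scn2a. Scn1a averaged 48.4 CPM in litter B and 62.6 CPM in litters A and F alike. Scn8a averaged 71.4 CPM in litter B against 95.8 CPM in litter A and 88.7 CPM in litter F. Each again put litter B at the bottom. Scn2b averaged 20.1 CPM in litter B and 34.3 CPM in litter F. Scn4b averaged 1.72 CPM in litter B, 2.96 CPM in litter A and 3.23 CPM in litter F. Scn9a, which also passed the test, ran the other way, with 30.3 CPM in litter B and 21.6 CPM in litter F. Scn3a, which did not pass, averaged 241 CPM in litter B and 213 CPM in litter F. Scn3b averaged between 264 and 271 CPM in litters A to E and 245 CPM in litter F.

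**Figure D4:**
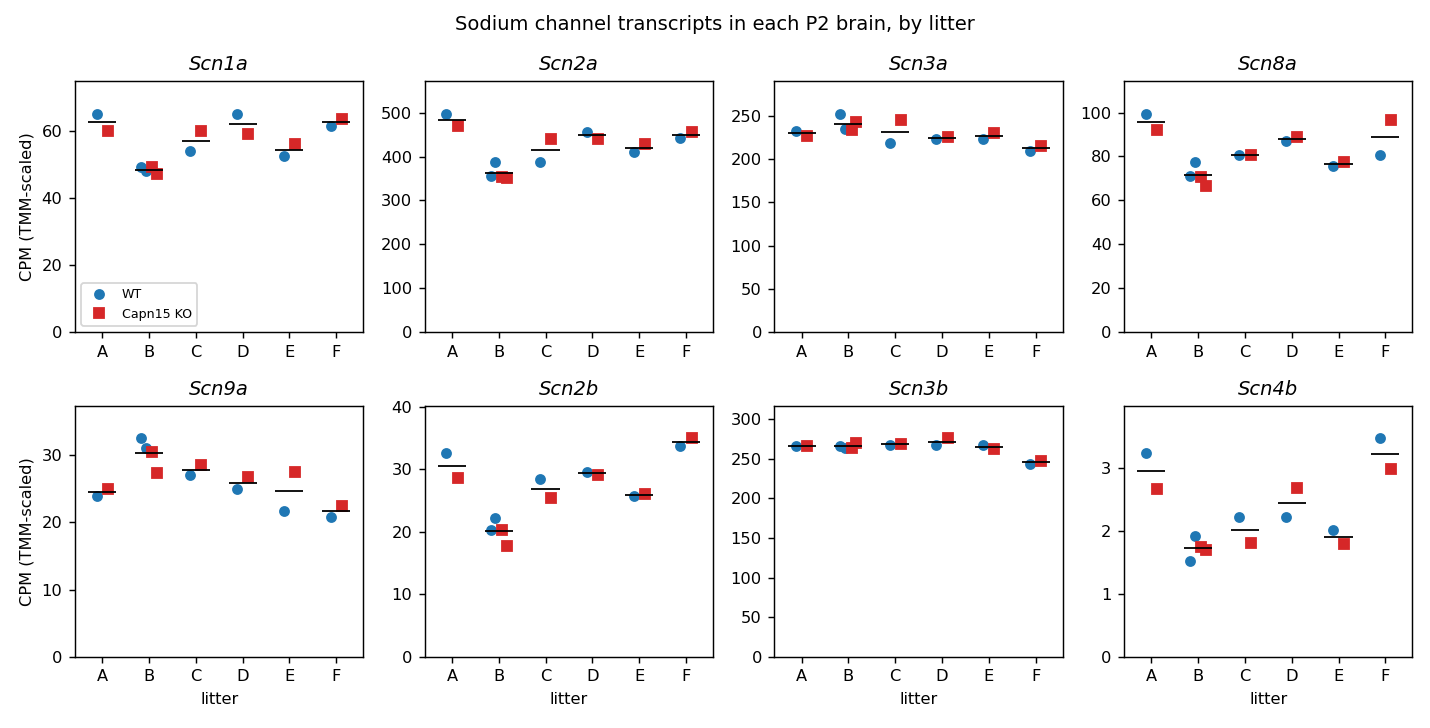
TMM-scaled CPM of each member (vertical axes from 0) by litter, with circles for WT brains, squares for Capn15 KO brains and a bar at the litter mean. By its mean, litter B is lowest for Scn1a, Scn2a, Scn8a, Scn2b and Scn4b and highest for Scn3a and Scn9a. Some WT and KO brains of a litter lie apart, as for Scn8a in litter F (80.7 CPM in WT, 96.7 CPM in KO).

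Ratios of Scn3a and Scn3b to the other subunits also differed between litters. Scn3a to Scn2a averaged 0.681 in litter B, 0.571 in litter C, 0.553 in litter E, 0.512 in litter D, 0.486 in litter A and 0.483 in litter F. The brains of litters A, C, D, E and F lay close together within their litter, the widest pair being 0.501 and 0.522 in litter D. The 4 brains of litter B spread more widely, from 0.618 to 0.724. Of the variation of the Scn3a to Scn2a ratio, 93.9% lay between litters. Scn3b to Scn2b ran from 6.10 in litter F to 11.3 in litter B, and Scn3b to Scn4b from 69.5 in litter F to 141 in litter B. Scn3a to Scn1a ran from 3.04 in litter F to 4.45 in litter B. Scn3a to Scn8a ran from 3.04 in litter A to 4.28 in litter B. An exact permutation test over all 945945 ways to divide the 14 libraries into 1 litter of 4 and 5 of 2 gave p between 0.000138 and 0.00266 for these 5 ratios (adjusted p over the 6 ratios between 0.000455 and 0.00320). Scn2a to Scn8a did not pass (exact permutation p = 0.695), with litter means between 6.25 and 6.76. Without litter F the exact p lay between 0.000346 and 0.00595 for the same 5 ratios and was 0.389 for Scn2a to Scn8a.

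**Figure D5:**
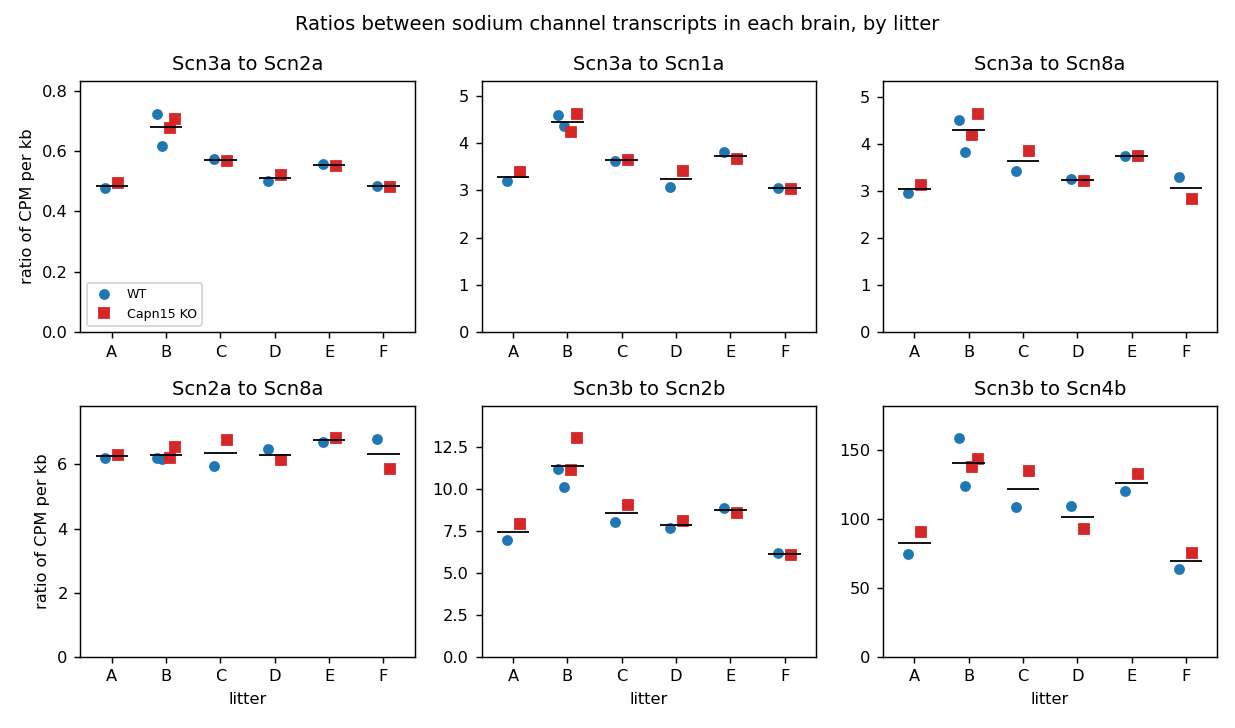
Ratios of CPM per kb between sodium channel genes in each brain (vertical axes from 0) by litter, with circles for WT and squares for Capn15 KO brains and a bar at the litter mean. The ratios of Scn3a and Scn3b to other subunits are highest in litter B, while Scn2a to Scn8a stays between 5.85 and 6.81 in all brains.

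Markers of several cell types moved with the litters as well. The summed oligodendrocyte lineage markers, of which 6 of 6 differed between litters (29.6% of all genes and 34.0% of those of at least 1 CPM did), were at 327 CPM in litter B, 511 CPM in litter A and 539.7 CPM in litter F. Astrocyte and radial glia markers (4 of 5) were at 1379 CPM in litter B, 1719 CPM in litter A and 1740 CPM in litter F, and neuron markers (4 of 5) at 4051, 4381 and 4333 CPM. These sums were thus lowest in the litter where Scn1a, Scn2a, Scn8a, Scn2b and Scn4b were lowest. The neuron sums of litter B (3953 to 4249 CPM) overlapped those of litter C (4054 to 4236 CPM), however. Sums of microglia, muscle and large brainstem and spinal neuron markers were also lowest in litter B. Those of endothelium and mural cells were lowest in litter E and that of choroid plexus in litter D. The meningeal fibroblast sum was highest in litter B (263 CPM), with 262 CPM in litter A. Red blood cell markers (5 of 5) were highest in litter B, at 245 CPM, and lowest in litter D, at 33.2 CPM. Peripheral sensory neuron markers, with 0 of 6 called between litters, summed to between 13.5 and 19.8 CPM in all libraries. No marker of neurons, astrocytes and radial glia, the oligodendrocyte lineage, red blood cells or peripheral sensory neurons was at 0 in any library. Over genotypes the sums overlapped, from 306 to 536 CPM in WT and from 331 to 543 CPM in KO for the oligodendrocyte lineage. The part of cell makeup in the litter differences was not tested.

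No member passed the test between sexes. In the fit with genotype and litter all 8 had lower values in females, but none had an FDR under 0.05 or an unadjusted p under 0.05 (backgrounds of 0.0669% and 5.04% of all genes). The largest differences, female minus male, were -0.06 for Scn8a, -0.06 for Scn4b and -0.06 for Scn2a on the log2 scale, with 95% intervals of -0.16 to 0.04, -0.30 to 0.18 and -0.13 to 0.02. The direction was not firm, since it turned for Scn9a (0.05) and Scn3b (0.02) when litter was left out of the model. Within the same-numbered pairs 1 to 6 the WT and KO brains were of opposite sex, so that pairs alone hold both contrasts.

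None of the 4 other family genes reported here, Scn7a, Scn10a, Scn11a and Nalcn, passed the test between genotypes. Nalcn was at 124.7 ± 5.47 CPM in WT and 124.8 ± 8.65 CPM in KO (SD, n = 7 each), with a log2 fold change of 0.00 (SE 0.0276, 95% interval -0.06 to 0.06). Scn10a, a sensory neuron channel, had 7 to 46 counts a library and a log2 fold change of 0.28 with a 95% interval from -0.18 to 0.75. Between litters 1 of these 4 genes was called, Nalcn (FDR 0.0181, edgeR), beside the background of 29.6% of all genes.

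Partners of the channels at the axon initial segment and node were measured for 13 of 13 listed genes, and none was called between genotypes. The 2 with an unadjusted p under 0.05 were the scaffolds that hold the channels in the membrane, Ank3 (391 ± 53.4 CPM in WT, 416 ± 25.4 CPM in KO, log2 fold change 0.14, SE 0.0458, FDR 0.765) and Ank2 (log2 fold change 0.09, SE 0.0396, FDR 0.935). Without litter F they were at 0.09 and 0.07. Of the 12 channel modulators none was called, and Nedd4l, a ubiquitin ligase of sodium channels (0.12, SE 0.0361, FDR 0.693), and Ncstn, a part of the gamma-secretase that cleaves beta subunits (0.07, SE 0.0283, FDR 0.911), had an unadjusted p under 0.05. Ncstn was higher in KO in 7 of 7 pairs, Nedd4l in 5 of 7, and Ank3 and Ank2 in 4 of 7 each. How many of all genes reach 7 of 7 pairs was not counted. Of 9 regulators of transcription and splicing none was called, and Nova2, a neuronal splicing factor, had the smallest p (log2 fold change 0.19, SE 0.0684, FDR 0.797). It was at 0.11 without litter F. Median log2 fold changes were 0.04 for partners, -0.01 for modulators and 0.02 for regulators, against 0.00 over all genes. Between litters 10 of 13 partners, 8 of 12 modulators and 7 of 9 regulators were called, beside the background of 29.6%. That background was 34.0% for genes of at least 1 CPM and 42.1% for those of at least 50 CPM. Large brainstem and spinal neurons are cells rich in Scn4b and Scn8a. Of 8 of their markers none was called, and 4 had an unadjusted p under 0.05 (5.14% of all genes did), with lower values in KO, among them Nefh (-0.23, SE 0.0346, FDR 0.0747), Lynx1 (-0.18, SE 0.0333, FDR 0.176) and Syt2 (-0.20, SE 0.0487, FDR 0.466). Syt2 was at -0.12 without WT or KO replicate 4. The study called 4 of these 8 markers on these samples, and the list was made with that known. Neither the count of 4 beside the 5.14% nor the direction is thus independent evidence.

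The genes whose levels across the 14 libraries were most like each member's were sought among 12175 genes (12176 for Scn4b) of at least 5 CPM, by Pearson correlation of log2 CPM after the genotype means were subtracted. These values are descriptions, since the libraries share litters and a litter difference raises them. For Scn2a the closest were Atrnl1 (r = 0.992), Stxbp5l (0.989), a syntaxin-binding protein, and Caln1 (0.987), and these stayed close after litter means were subtracted (0.926, 0.971 and 0.894). For Scn8a, Adam23 (0.969) and Fras1 (0.965) were among the closest. For Scn1a they were Jakmip3 (0.960), Homer2 (0.955), a postsynaptic scaffold, and Rasgrf2 (0.946). The closest genes to Scn3a were Fat4 (0.950), a giant cadherin, Zfp119a (0.948) and Plxna4 (0.943), a semaphorin receptor, and those to Scn9a were Med12 (0.942), Rai1 (0.935) and Zkscan6 (0.928). Among beta subunits, Scn2b was nearest to Ankrd34c (0.982), Rasgrp1 (0.982) and Rap1gap2 (0.981). Scn4b was nearest to Clu (0.974), an extracellular chaperone, Ppp2r5c (0.970) and Slc16a1 (0.970). Scn3b had the weakest likeness, with Ppp2r5e (0.882), Fbxl17 (0.842) and Rnf152 (0.817). Within litters the likeness of Scn2b to Rap1gap2 dropped to 0.374, and that of Scn1a to Rasgrf2 to 0.502.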

How the data were processed

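RNA-SEQ of 14 P2 brains was used. After trimming and alignment to GRCm38 the authors deposited raw counts per gene, 1 column for each brain, with no normalization. The labels name Trimmomatic, STAR and featureCounts, while the study's methods name HTSeq-count. The labels gave genotype and replicate number. Each count column is named for its litter and sex. Same-numbered WT and KO brains came from 1 litter, and the correlations of their deviations from the genotype means lay between -0.467 and 0.443 over 15227 genes. The smallest chi-square between any 2 libraries, as a mean over genes, was 4.66 (WT replicate 1 and KO replicate 1), and none was treated as a copy.

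The counts were tested with edgeR 4.0.16 in R 4.3.3 (quasi-likelihood test, TMM, genotype, litter and sex, all genes with at least 1 count, Benjamini-Hochberg FDR). DESeq2 1.42.0 and limma 3.58.1 served as alternatives. Python 3.11.15 (pandas 2.3.3, scipy 1.17.1, numpy 2.4.6) gave ratios (0.5 added to each count) and exact permutation tests, and matplotlib 3.10.9 the figures. Lengths came from GENCODE M21, in which 17915 of 17927 genes were found. On simulated counts of 17927 genes for KO against WT, 100 of 100 genes changed by 0.5 and 100 of 100 changed by 1 on the log2 scale were recovered, with 14 false calls. The changed genes were drawn from those of at least 5 CPM, which leaves out levels such as that of Scn4b (2.29 CPM). The counts were drawn from the fitted means and dispersions. In the real data Capn15, at -0.81, had an FDR of 0.0747, so the simulation does not give the power for the members. The members and lists were chosen with earlier results of these data known. Named genes are all members, Capn15, the other family genes, up to 3 genes of smallest p of each list and the 3 genes most like each member. Values of 3 genes under this rule are not reported here. Replicates are separate brains. PCR reads are not independent molecules, so counting intervals cover counting error only. Alternatives were other tests, scalings and covariates, a replicate block, other lengths, and each library left out in turn.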

Additional observations from a re-analysis of the deposited data

Results flagged for a closer look

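Of 28 sets of 7 values that were checked for a single library far from the rest, about 1.4 of which chance would give, 1 stood out. Scn3b was lowest in the litter F library among the WT libraries, at 7.93 log2 CPM, while the nearest WT library was at 8.04, a gap of 0.857 of the whole WT range. The KO library of litter F was also the lowest of its genotype for Scn3b, at 247 CPM. This is the litter in which Capn15 goes against the labels. A cause was not tested.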

How the results depend on the processing

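No member was called between genotypes or between sexes under any alternative run, and 6 were called between litters, 7 by the likelihood ratio test, 8 by DESeq2 and 6 to 7 with 1 library left out. Of 200 values of the members for genotype 184 kept their direction, of 176 for litter 169 kept their side of the threshold and 7, of Scn3a and for DESeq2 also Scn3b, passed it, and of 184 for sex 174 kept their direction. With the replicate block for the same-numbered pairs, 0 genes in all were called and each member kept its direction. Over all genes, 1 was called between genotypes, and 34 by the likelihood ratio test, 17 by DESeq2, 0 with library totals, 2 without sex and 7 without litter F. Leaving out 1 library gave 0 to 7 genes, with 6 without WT replicate 7 and 7 without KO replicate 7, while Capn15 lay between -0.98 and -0.67. Between sexes 12 genes were called, 36 by the likelihood ratio test and 19 by DESeq2, and 11 to 16 with 1 library left out. The causes of these differences were not tested.

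Values near 0 changed sign. Log2 fold changes turned for Scn1a to -0.0014 with genotype alone and -0.0038 without litter F, for Scn2a to -0.00065 and Scn8a to -0.0026 without sex, for Scn8a to -0.031 without litter F, for Scn11a to 0.0041 with genotype alone and 0.0023 without litter F, and for Nalcn to 0.0013 with genotype alone. For female against male, Scn9a turned to 0.050 and Scn3b to 0.019 without litter. With 1 library left out the genotype values lay between -0.045 and 0.065 for Scn1a, -0.025 and 0.063 for Scn2a, 0.0080 and 0.065 for Scn3a, 0.026 and 0.092 for Scn9a, -0.21 and -0.00092 for Scn4b, -0.034 and 0.044 for Scn8a, -0.30 and 0.15 for Scn11a, and -0.023 and 0.026 for Nalcn. The sex values lay between -0.077 and 0.047 for Scn1a, -0.064 and 0.00035 for Scn2b, -0.16 and 0.086 for Scn4b, and -0.082 and 0.0014 for Scn9a. The ratios lay between -0.031 and 0.086 for Scn3a to Scn2a, -0.034 and 0.077 for Scn3a to Scn1a, -0.035 and 0.084 for Scn3a to Scn8a, -0.013 and 0.023 for Scn2a to Scn8a, and -0.011 and 0.21 for Scn3b to Scn4b. Per coding length the share of Scn1a was 6.85% and that of Scn8a 10.0%. Depth limits Scn10a, Scn11a and Scn7a most, and Scn4b among the members.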
